A study of Mus musculus with 20 samples.

Results

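The cytosolic ribosomal protein genes were taken as every gene whose symbol has the form Rpl, Rps, Rplp or Rpsp followed by a number, with at most a letter and a digit after it and with pseudogene symbols left out. This gave 83 of the 24411 genes in the tables, 51 with a large subunit symbol (Rpl and the P-stalk genes Rplp0, Rplp1 and Rplp2) and 32 with a small subunit symbol (Rps). The rule used symbols only and no measured value. It kept Rps4l, whose symbol does not mark it as a pseudogene but which the GENCODE vM21 annotation lists as a transcribed processed pseudogene. The RNA came from the micro-dissected apical coil of the mouse cochlea, which holds the sensory epithelium and the spiral ganglion neurons, and each of the 20 libraries was a pool of 4 mice (3 to 4 in another description by the study). Bai1tm2b/+ littermates served as controls for Bai1tm2b/tm2b mice at postnatal day 7 (P7, 7 libraries per genotype) and at day 22 (P22, 3 libraries per genotype). Both genotypes were on the C57BL/6N background and of both sexes. The tm2b allele lacks exons 3 and 4 of Adgrb1, the gene of the adhesion receptor BAI1, and carries a lacZ cassette in their place. It removes the long isoform and leaves the short one. The deletion was made in embryos with Cre and is thus not limited to a cell type, and the controls carried 1 copy of it. At P22 and in P7 replicates 5 to 7 the values were estimated read counts. In P7 replicates 1 to 4 they were TPM (a level per transcript length, scaled so that every library has the same total) rounded to whole numbers, so these libraries were analysed on their own.

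Each ribosome holds close to one copy of nearly every ribosomal protein, and the mRNAs of these proteins are among the most abundant in the cell. Most of them begin with a run of pyrimidines at the 5′ end, the TOP motif, through which mTOR and the binding protein LARP1 adjust their translation and stability together. Growing and dividing cells make many ribosomes, and several genes of the set have roles apart from the ribosome: Rpl5 and Rpl11 bind the p53 regulator MDM2 when ribosome assembly fails, and Rps27a is translated as a fusion with ubiquitin. Some proteins have a second gene, a paralog such as Rpl22l1 for Rpl22, that can take its place in part.

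The start of the transcript shows what the genes share that the symbol rule did not use. The 30 bases around the annotated RefSeq start (GRCm38.p6, 10 bases before it and 20 from it on) are given for the member with the longest tract, Rpl27a, and for 7 members that recur in the results, with Rpl4 and Rpl7l1 as examples without a tract. Capitals mark a run of at least 6 pyrimidines that opens with C and begins within 10 bases of the start.
Rpl27a, chr7:109519185-109519214, plus strand: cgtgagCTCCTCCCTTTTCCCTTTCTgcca
Rps12, chr10:23787190-23787219, minus strand: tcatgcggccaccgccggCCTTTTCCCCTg
Rps18, chr17:33955646-33955675, minus strand: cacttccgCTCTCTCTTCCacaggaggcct
Rps27, chr3:90213629-90213658, minus strand: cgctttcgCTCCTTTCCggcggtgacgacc
Rpl38, chr11:114668570-114668599, plus strand: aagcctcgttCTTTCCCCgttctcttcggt
Rpl12, chr2:32961702-32961731, plus strand: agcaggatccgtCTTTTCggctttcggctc
Rpl4, chr9:64173377-64173406, plus strand: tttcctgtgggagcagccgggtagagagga
Rpl7l1, chr17:46782637-46782666, minus strand: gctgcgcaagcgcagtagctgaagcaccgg
Of the 83 members 62 had a RefSeq promoter entry, and 34 of these (54.84%) held such a tract, against 5799 of all 27025 genes with an entry (21.46%). The sequence CCGGAAG, searched on both strands of the 250 bases before and 50 bases after the start, was in 25 of the 62 (40.32%) and in 9.928% of all entries. The tract search and this sequence were read from annotated starts, which can differ from the starts used in the cochlea.

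The libraries in counts held 31108600 to 58807200 estimated counts. Adgrb1, the targeted gene, was at 137, 139 and 151 CPM (counts scaled to a common library total, after TMM scaling) in the P22 controls and at 90.8, 93.3 and 95.8 CPM in the P22 Bai1tm2b/tm2b libraries, a log2 fold change of −0.61 ± 0.06 (SE) with adjusted p = 0.000602 (edgeR). In P7 replicates 5 to 7 the difference was −0.64 ± 0.23 with adjusted p = 0.894, and in replicates 1 to 4 it was 0.02 ± 0.13 (limma, adjusted p = 0.930). The counts include the short isoform, so the level of the gene is a partial check of the labels. Spiral ganglion neuron markers (a list of 10 with none at 0) summed to 18186 to 20329 CPM in the P22 controls and 13239 to 14915 CPM in the P22 Bai1tm2b/tm2b libraries. In the P22 test 8 of the 10 were lower and none higher, where 5.04% of all genes were called higher and 7.28% lower. Of the 10 hair cell markers 3 were higher and 1 lower, with sums of 913 to 958 CPM and 910 to 993 CPM. These sums overlapped, yet scaling to the list moved the median log2 fold change of the ribosomal protein genes at P22 to −0.12, as given further on. Of the 10 supporting cell markers 6 were higher and 1 lower, with sums of 1761 to 2141 CPM and 2304 to 2657 CPM. At P7 the neuron markers summed to 1386 to 3216 CPM in the controls and 1179 to 1834 CPM in the Bai1tm2b/tm2b libraries of replicates 5 to 7, and to 1953 to 2934 TPM and 2089 to 3226 TPM in those of replicates 1 to 4. Of these markers 0 of 10 and 1 of 9 were called, the latter higher, where 0% and 4.76% of all genes were called higher. These marker values moved with the genotype beside the ribosomal protein genes, and their part in the results was not tested. In such bulk samples fewer cells of a type and less RNA per cell cannot be told apart.

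By level per length the set spanned a wide range. Over the 8 P7 libraries in TPM the median member was at 1963 TPM, 64 members were above 1000 TPM and 5 were below 100 TPM. Rplp1, one of the acidic stalk proteins that contact elongation factors, was highest at 5692 TPM, followed by Rps12 (4499), Rps14 (4353), Rps26 (4209) and Rps21 (4191). The lowest members above 1 TPM were Rpl7l1 (79.9 TPM), Rpl30 (89.4), Rpl26 (116), Rps15a (118) and Rps4l (127). These rankings take each member without its near-identical copies, which are described further on. Gm12191, a copy of Rpl30, was listed at 1889 to 2433 TPM, and Gm15772, a copy of Rpl26, at 2544 to 3476 TPM. Rps27rt, a copy of Rps27, was listed at 6557 to 7481 TPM. The paralog Rpl39l was at 0.625 TPM, and Rpl3l, the form of Rpl3 made in striated muscle, and Rpl10l, a testis form of Rpl10, were listed at 0 TPM. These 3 were left out by the filters on low values, so 80 members (48 large, 32 small) were tested in each comparison. At P22, with counts divided by the transcript length of GENCODE vM21, Rplp1 (832 CPM per kb), Rpl13a (599), Rpl13 (500), Rpl23a (472) and Rps15 (465) led. The annotated lengths of Rps15a (5130 nt) and Rps20 (3706 nt) were far above the median of 772.5 nt of the tested members and lowered their values on this scale.

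To ask whether the genotype changed these mRNAs in the young adult, the 3 libraries of each genotype at P22 were compared. The ribosomal protein genes stood higher in the Bai1tm2b/tm2b cochlea: 55 of the 80 were called higher (adjusted p under 0.05, edgeR quasi-likelihood test with Benjamini-Hochberg adjustment over all 15443 genes tested) and 0 lower, where 5.04% of all genes were called higher and 7.28% lower. The median log2 fold change of the members was 0.29, a fold of 1.22, beside 0.01 for all genes, with a median SE of 0.07. The differences were small, and under the thresholds of the study (log2 fold change over 0.5 and SE under 0.5 in addition) 1 member was called, Rps12, where 1.74% of all genes were called higher and 1.41% lower. The 3 Bai1tm2b/tm2b libraries lay above all 3 controls for 72 of the 80 members and below them for 0, where 15.8% and 17.9% of all genes did so. The median member stood at −0.00084, 0.12 and −0.12 in the controls (log2 ratio to the control mean) and at 0.27, 0.25 and 0.34 in the Bai1tm2b/tm2b libraries, so the groups did not overlap. The members together took 1.49% ± 0.136 (SD, n = 3, from 1.35% to 1.62%) of all counts in the controls and 1.88% ± 0.0593 (n = 3, from 1.84% to 1.95%) in the Bai1tm2b/tm2b libraries.

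**Figure D1:**
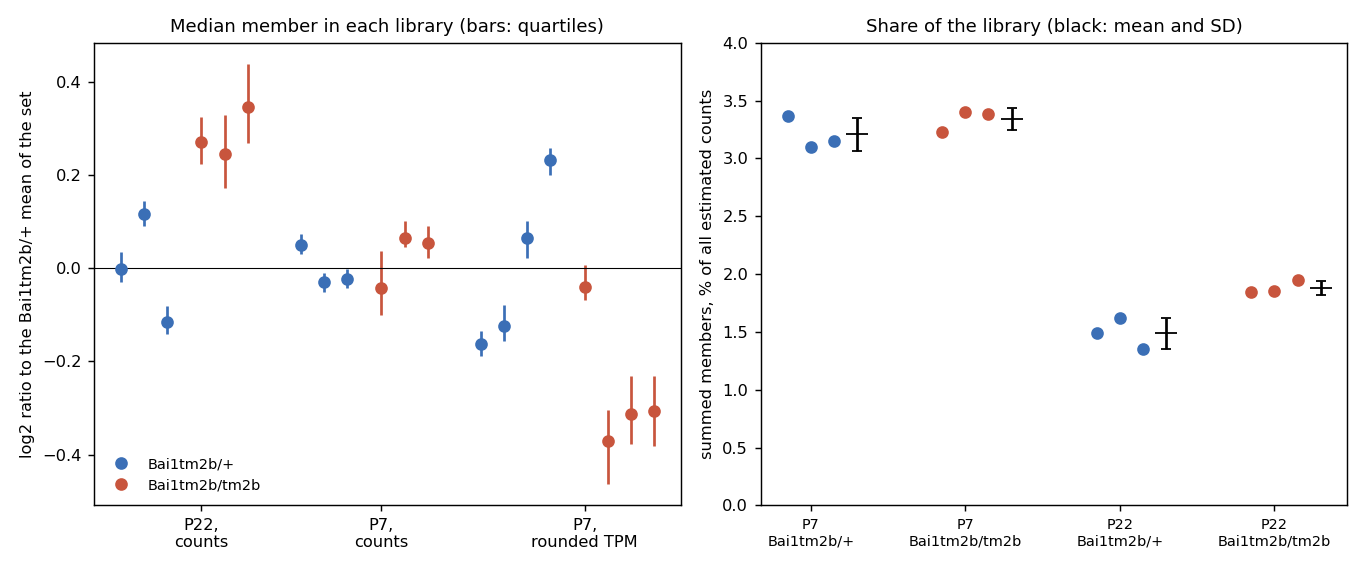
Left, the median member in each of the 20 libraries as a log2 ratio to the mean of the control libraries of the same set, with bars for the quartiles over members (blue Bai1tm2b/+, red Bai1tm2b/tm2b). Right, the share of all estimated counts taken by the 83 members in the 12 libraries in counts, with the mean and SD in black. At P22 the red points (1.84% to 1.95%) lie above the blue ones (1.35% to 1.62%).

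Of the 32 small subunit genes 26 were called higher, with a median of 0.33, and of the 48 large subunit genes 29, with a median of 0.25. The difference between the subunits was not tested. The most changed members that were called came from both. Rps12, a small subunit protein, was at 158, 196 and 164 CPM in the controls and at 236, 247 and 253 CPM in the Bai1tm2b/tm2b libraries, a log2 fold change of 0.51 ± 0.08 (adjusted p = 0.00460). All 3 Bai1tm2b/tm2b libraries were above the highest control. Rpl22l1, the paralog of Rpl22, was at 23.9, 29.3 and 23.2 CPM against 33.7, 36.2 and 37.1 CPM, a log2 fold change of 0.49 ± 0.09 (adjusted p = 0.0104). Rps19, whose human counterpart is the gene most often mutated in Diamond-Blackfan anaemia, went from 92.8 ± 6.94 (SD, n = 3) to 127 ± 6.21 CPM (log2 fold change 0.46 ± 0.07). Rps16, a small subunit protein, had the lowest adjusted p of the set, 0.00186. Its controls were at 156, 164 and 152 CPM and its Bai1tm2b/tm2b libraries at 206, 213 and 216 CPM. Rps21 (0.45), Rpl12 (0.44), Rpl17 (0.42), Rps24 (0.41), Rpl9 (0.41) and Rps27a (0.40) completed the 10 called members with the largest log2 fold changes. Rps27 had the largest value of the set, 0.51 ± 0.27, but was not called (adjusted p = 0.245), and it is described with its copy further on.

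Of the genes with roles beyond the ribosome, Rpl5 was called higher (261 ± 21.5 against 325 ± 9.26 CPM, SD, n = 3 and 3, edgeR adjusted p = 0.0130) and so was Rpl11 (220 ± 20.6 against 269 ± 10.6 CPM, adjusted p = 0.0260). In the P-stalk, Rplp0, its scaffold, was at 407, 419 and 369 CPM in the controls and 470, 468 and 470 CPM in the Bai1tm2b/tm2b libraries and was called (log2 fold change 0.24 ± 0.06, adjusted p = 0.0299). Rplp1 (0.25 ± 0.08, adjusted p = 0.0806) and Rplp2 (0.22 ± 0.08, adjusted p = 0.0949) were not called by edgeR. DESeq2 called both (adjusted p = 0.0204 and 0.0436), and so did edgeR without Bai1tm2b/+ replicate 2. The smallest values of the set belonged to Rps4l (−0.17 ± 0.09), Rpl7l1 (−0.00073 ± 0.07), Rpl4 (0.07 ± 0.06), Rpl29 (0.11 ± 0.06) and Rpl22 (0.15 ± 0.06), and none of these was called. Rps4l, a relative of Rps4x annotated as a pseudogene, was at 51.9, 56.4 and 50.4 CPM against 47.9, 41.4 and 52.2 CPM, and its groups overlapped.

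The count of called members rested on the libraries used: it was 13 without Bai1tm2b/+ replicate 1, 66 without Bai1tm2b/+ replicate 2, 28 without Bai1tm2b/+ replicate 3, and 29, 31 and 21 without Bai1tm2b/tm2b replicates 1, 2 and 3, while the median log2 fold change stayed between 0.22 and 0.35. Without Bai1tm2b/+ replicate 1 the call was lost for Rpl22l1, Rpl5, Rpl11 and Rplp0, without Bai1tm2b/tm2b replicate 3 for Rpl5, Rpl11 and Rplp0, and without Bai1tm2b/+ replicate 3 or Bai1tm2b/tm2b replicates 1 or 2 for Rpl11 and Rplp0. The share of all genes called without each library is not given here. Scaling the counts to the 10 hair cell markers or to the 10 neuron markers moved all genes alike. The median of the members was then −0.12 beside −0.39 for all genes and 0.69 beside 0.42, so that the sign of a member depends on the scaling. Because all genes move alike, the gap between the members and all genes could hardly change, and its presence under each scaling is no further support.

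**Figure D2:**
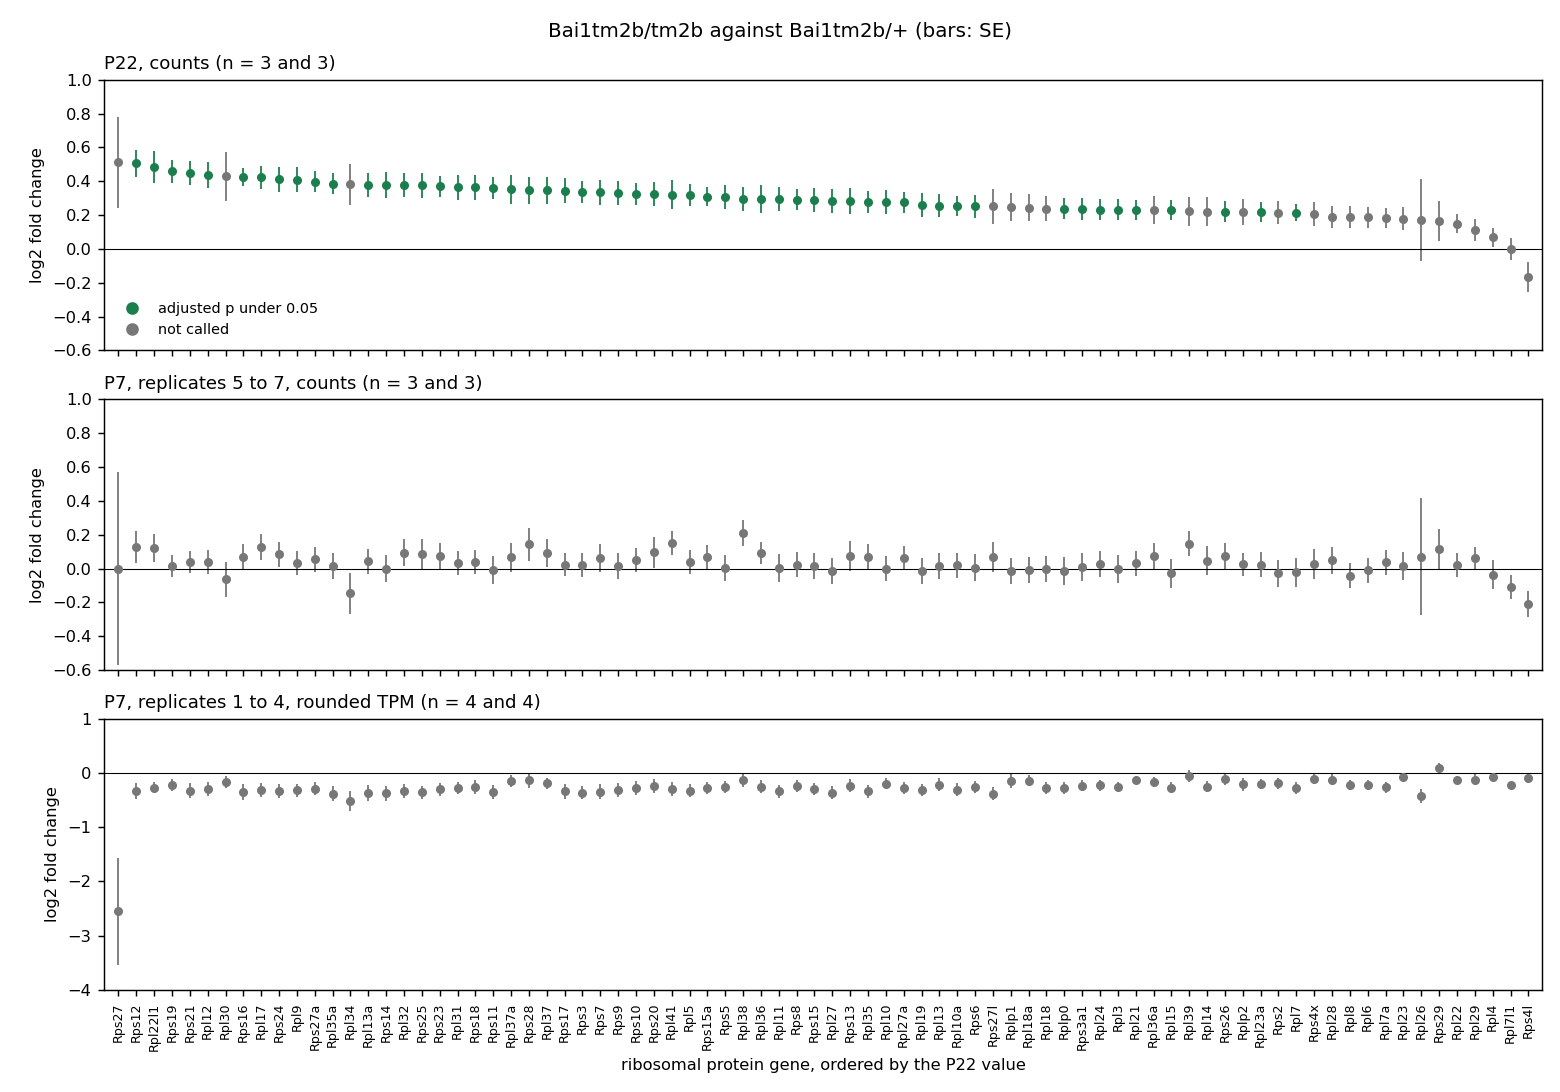
The log2 fold change of each of the 80 tested members, Bai1tm2b/tm2b against Bai1tm2b/+, with its SE, in P22 counts (top), P7 replicates 5 to 7 in counts (middle) and P7 replicates 1 to 4 in rounded TPM (bottom, on a wider axis). Members are ordered by the P22 value, and green points, 55 in all and only at the top, were called at adjusted p under 0.05.

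At P7 the same question was asked in each set of libraries on its own. In replicates 5 to 7, in counts, no difference of the members was called: 0 of 80 were called higher and 0 lower by edgeR, where 0% of the 16026 genes tested were called in either direction, and DESeq2 also called 0 members. At an unadjusted p under 0.05 there were 2, Rpl38 (0.21 ± 0.08) and Rps4l (−0.21 ± 0.08), both with adjusted p = 0.894, where 3.08% of all genes were higher and 1.68% lower by that measure. The median of the members was 0.03 with a median SE of 0.08, and 5 members were higher and 1 was lower in all 3 Bai1tm2b/tm2b libraries than in the 3 controls, where 5.76% and 4.64% of all genes were. Rps12 was at 599, 492 and 510 CPM in the controls and at 609, 572 and 567 CPM in the Bai1tm2b/tm2b libraries, and the groups overlapped. The members took 3.10% to 3.37% of all counts in the controls and 3.23% to 3.40% in the Bai1tm2b/tm2b libraries.

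In P7 replicates 1 to 4, in rounded TPM, the members lay below the controls without passing the test. No member was called by limma on log2(TPM + 1), where 4.76% of the 11740 genes tested were called higher and 3.26% lower, and the lowest adjusted p of the set was 0.0620, for Rps27l, a p53-responsive paralog of Rps27 (509 ± 61.5 against 393 ± 61.8 TPM, SD, n = 4 and 4, log2 fold change −0.38 ± 0.12). At an unadjusted p under 0.05, 46 of 80 were lower and 0 higher, where 16.1% and 18.5% of all genes were. The median of the members was −0.26 beside 0.01 for all genes, and 79 of the 80 values were below 0, Rps29 (0.09 ± 0.11) being the other. The controls spread widely, with the median member at −0.16, −0.12, 0.07 and 0.23, and the Bai1tm2b/tm2b libraries stood at −0.04, −0.37, −0.31 and −0.31. Replicate 1 of Bai1tm2b/tm2b lay within the range of the controls. Without it 37 members were called lower with a median of −0.34, while leaving out any other of the 8 libraries gave 0 calls. The share of all genes called without it is not given here, so the 37 calls alone are no result about the members. Rps12 was at 4284, 4349, 5541 and 6059 TPM in the controls and at 4922, 3587, 3792 and 3728 TPM in the Bai1tm2b/tm2b libraries. Only Rps21 lay below all its controls in all 4 Bai1tm2b/tm2b libraries (3957 to 6321 against 3573 to 3910 TPM), and no member lay above them, where 8.84% and 9.31% of all genes did so. The summed share of the members was 17.3% ± 1.46 of all TPM in the controls and 15.8% ± 1.39 in the Bai1tm2b/tm2b libraries (SD, n = 4 and 4, from 16.2% to 19.4% against 14.6% to 17.8%).

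Differences between the genotype effects were tested next. The genotype difference at P22 minus that at P7 in the 12 libraries in counts was above 0 for all 80 members, with a median of 0.27 ± 0.12 (median SE) beside 0.02 for all genes. It was called for 0 members by edgeR (lowest adjusted p = 0.156, 40 members at an unadjusted p under 0.05, where 5.82% of all genes were higher and 4.39% lower) and for 3 by DESeq2. Of all genes 0% were called higher and 0.0306% lower by edgeR. The genotype difference in P7 replicates 1 to 4 minus that in replicates 5 to 7 had a median of −0.30 over the members and was called for 0 of them (limma, lowest adjusted p = 0.217, 26 members lower at an unadjusted p under 0.05, where 6.16% of all genes were lower and 11.6% higher, and 0% were called). The P22 effect was thus not shown to be absent at P7, nor the 2 sets at P7 to differ. The paper describes P7 as 2 batches, of 4 and 3 samples per genotype, but the labels assign no library to a batch. Between the 2 sets, the unit and any batch that goes with it cannot be told apart.

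Ribosomal protein transcripts are short, so the differences were set beside those of other genes of like length. The tested members had a median length of 772.5 nt, against 2694 nt over all genes tested at P22. In P7 replicates 1 to 4 the log2 fold change followed length across genes (Spearman's rho 0.61 over all genes tested with a length, as a description), while within the tested members rho was 0.12. Other genes of 500 to 1000 nt had a median of −0.22 and the 52 members of that length −0.27. At 1000 to 2000 nt the medians were −0.11 for other genes and −0.26 for 13 members, and at 2000 to 4000 nt they were 0.03 and −0.23 (3 members), so that the longer members lay below other genes of their length. The −0.23 is the value of Rps20, whose annotated length of 3706 nt was far above that of the set. Rpl5 and Rpl22, the others in that class, stood at −0.32 and −0.12. With the trend on length taken out of each library, the median of the members was −0.07. At P22 the relation ran the other way and was weaker (rho −0.21): the other genes of 500 to 1000 nt had a median of 0.10 and 8.05% of them were called higher, against a median of 0.29 and 73.1% of the 52 members of that length. With the trend on length taken out, 22 members were called higher and 1, Rps4l, lower, with a median of 0.14. The share of all genes called in that fit is not given here. Rps21 (0.23, adjusted p = 0.0579), Rpl11 (0.15, adjusted p = 0.0831) and Rplp0 (0.14, adjusted p = 0.0863) then lost their calls in edgeR. In P7 replicates 5 to 7 rho was 0.04. Whether length, RNA integrity or library preparation had a part in these differences was not tested.

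**Figure D3:**
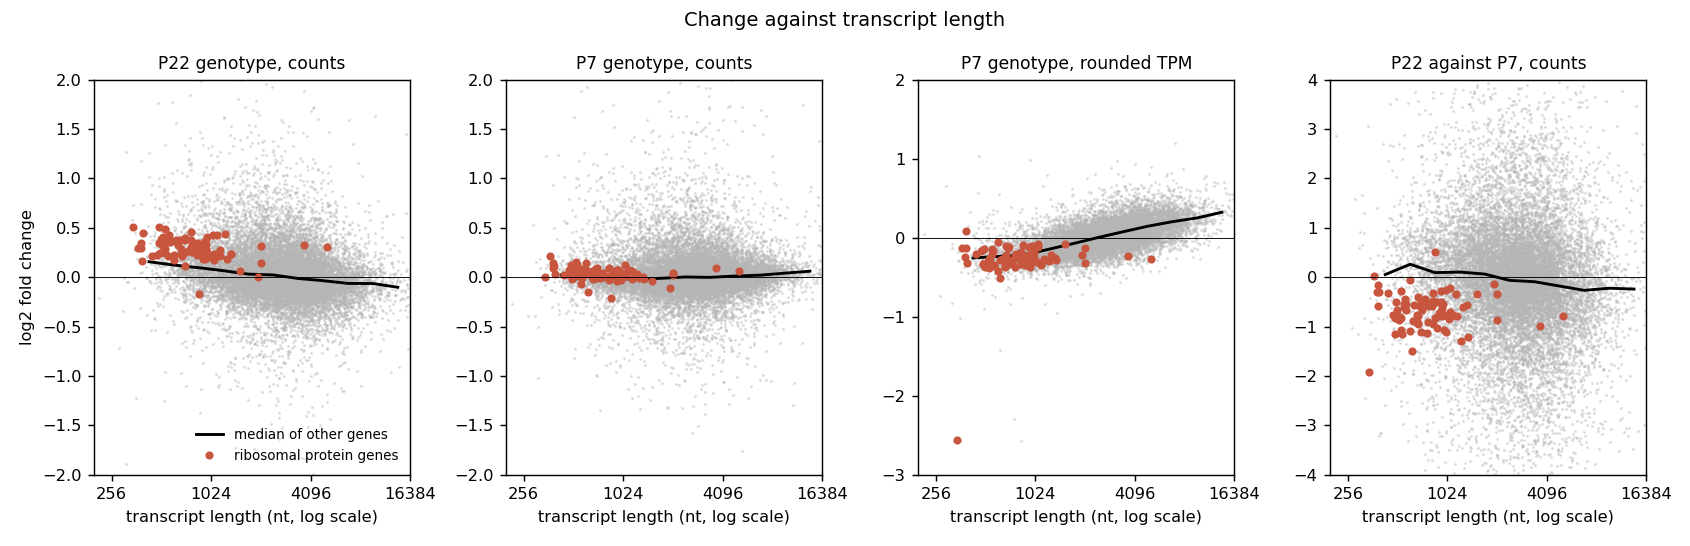
The log2 fold change of every tested gene (grey, of which a few lie outside the axes) against its transcript length in 4 comparisons, with the running median of the other genes in black and the ribosomal protein genes in red. In rounded TPM the red points lie near the black line at 500 to 1000 nt (medians of −0.27 and −0.22) and below it at 1000 to 2000 nt (−0.26 and −0.11). At 500 to 1000 nt at P22 (0.29 and 0.10) and between the ages (−0.70 and 0.14) they stand apart from it.

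For 4 members most of the signal was assigned to a near-identical gene elsewhere in the genome. The values are estimates by Salmon, and reads from identical stretches do not show which gene they came from. These copies (Rps27rt, Rpl34-ps1, Gm15772 and Gm12191) were picked out after the values were seen, from 13 copies in the tables that belong to 12 members by symbol or by shared sequence. The other 9 copies took at most 4.31% of the counts of the pair, and at most 5.68% of its rounded TPM. The coding sequence of Rps27 (gene at chr3:90212522-90213651, minus strand, GRCm38) and that of Rps27rt, a retrotransposed gene annotated as protein coding (chr9:114982366-114982739, minus strand), were the same over all 255 bases, so it is shown once.
Rps27 and Rps27rt, coding bases 1 to 255: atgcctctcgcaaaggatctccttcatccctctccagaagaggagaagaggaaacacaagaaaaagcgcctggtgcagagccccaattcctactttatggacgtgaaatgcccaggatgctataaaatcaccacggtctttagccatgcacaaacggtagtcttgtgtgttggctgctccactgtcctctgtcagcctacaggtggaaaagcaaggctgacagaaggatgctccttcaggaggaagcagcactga
Rpl30 (chr15:34440505-34443640, minus strand) and Gm12191 (chr11:49678710-49679057, minus strand) differed at 1 of 348 coding bases, G96A, and Rpl26 (chr11:68901583-68906989, plus strand) and Gm15772 (chr5:3236431-3236868, plus strand) at 2 of 438, C177T and T288C, with positions counted from the first base of the start codon and the member's base given first. The stretches around these bases show how little tells the genes apart, with the differing base in capitals.
Rpl30, coding bases 76 to 116: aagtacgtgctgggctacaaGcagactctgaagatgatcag
Gm12191, the same bases: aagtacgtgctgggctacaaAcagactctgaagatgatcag
Rpl26, coding bases 157 to 308: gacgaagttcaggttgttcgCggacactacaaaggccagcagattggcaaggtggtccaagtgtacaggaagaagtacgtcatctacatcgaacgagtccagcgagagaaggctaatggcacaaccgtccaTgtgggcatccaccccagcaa
Gm15772, the same bases: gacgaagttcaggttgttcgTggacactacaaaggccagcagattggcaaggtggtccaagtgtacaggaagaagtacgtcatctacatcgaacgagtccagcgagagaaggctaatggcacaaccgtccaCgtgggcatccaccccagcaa
Rpl34 (chr3:130726831-130730398, minus strand) and Rpl34-ps1 (chr6:71124610-71124963, plus strand) differed at 2 of 354, T132C and C318G.

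The estimates gave most of the summed counts of each pair to the copy, and which of the genes was transcribed was not tested. At P22 Rps27rt took 98.95% to 99.34% of the sum with Rps27, Rpl34-ps1 89.2% to 92.3%, Gm15772 96.7% to 98.5% and Gm12191 95.2% to 96.2%. Rps27 alone was thus at 1.14, 1.19 and 0.928 CPM in the P22 controls. In P7 replicates 1 to 4 its deposited values were 38, 99, 201 and 450 TPM in the controls and 208, 9, 11 and 15 TPM in the Bai1tm2b/tm2b libraries, while Rps27rt was between 6557 and 7481 TPM in all 8. The genotype log2 fold change of Rps27 alone in that set was −2.55 ± 0.99 (limma, adjusted p = 0.104), and summed with Rps27rt it was −0.14 ± 0.13 (adjusted p = 0.463).

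Each member was then summed with its copies. At P22 Rpl34 (0.44, adjusted p = 0.00899), Rpl26 (0.34, adjusted p = 0.0149) and Rpl30 (0.29, adjusted p = 0.0298) were then called higher by edgeR, which did not call them alone, and Rps27 stood at 0.28 (adjusted p = 0.0602). DESeq2 called Rpl34 alone as well (adjusted p = 0.0392). The count of called members became 58 of 80 with a median of 0.29.

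**Figure D4:**
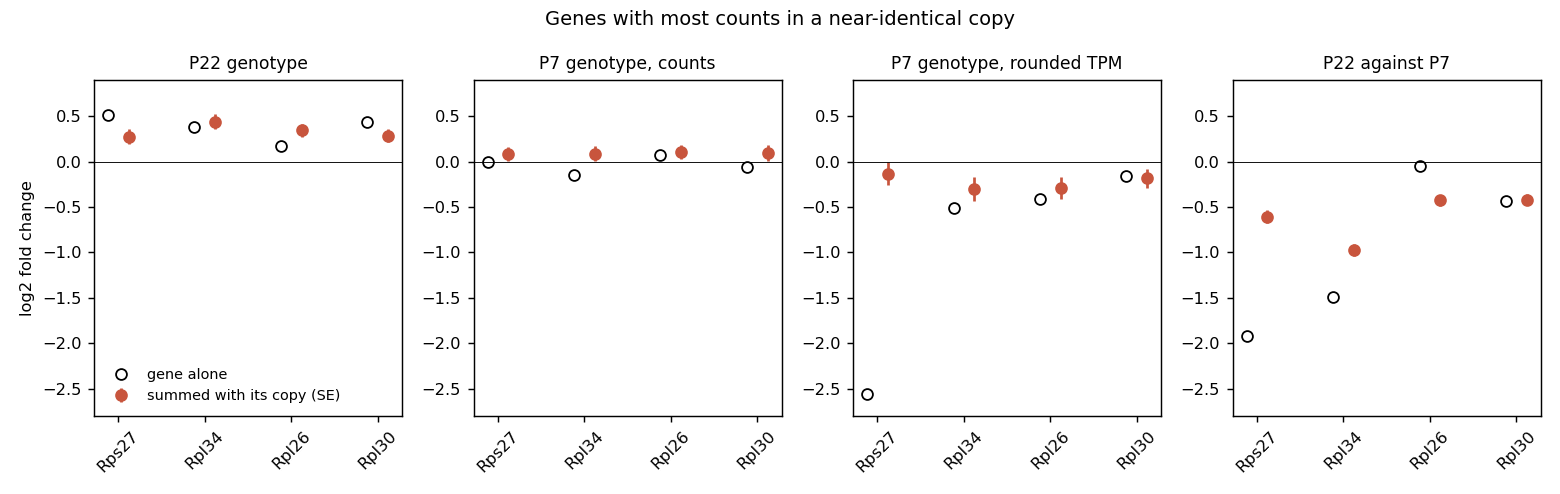
The log2 fold change of Rps27, Rpl34, Rpl26 and Rpl30 alone (open circles) and summed with their copies (red, with SE) in 4 comparisons. The widest gaps are for Rps27, from −2.55 to −0.14 in the rounded TPM and from −1.92 to −0.61 between the ages.

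Between P7 and P22 the ribosomal protein mRNAs fell. In the 12 libraries in counts, with genotypes given equal weight, 76 of the 80 members were called lower at P22 and 1 higher (edgeR, adjusted over 16314 genes), where 42% of all genes were called lower and 38.2% higher. The median log2 fold change of the members was −0.66, a fold of 0.631, beside −0.05 for all genes. Under the thresholds of the study 57 were lower and 1 higher, where 28.7% and 25.9% of all genes were, and the 6 P22 libraries lay below the 6 P7 libraries for 66 members and above them for 1, where 32% and 30.6% of all genes did so. Small subunit genes had a median of −0.78 and large subunit genes of −0.58. As a share of all counts the set went from 3.21% ± 0.141 (P7, n = 3) to 1.49% ± 0.136 in the controls and from 3.34% ± 0.0960 to 1.88% ± 0.0593 in Bai1tm2b/tm2b (SD, n = 3 each). With counts divided by transcript length it went from 9.34% ± 0.422 to 4.29% ± 0.321 and from 9.76% ± 0.143 to 5.27% ± 0.174. The paper describes separate batches for P7 and P22, so age cannot be told apart from batch or from any sequencing run that goes with it. The labels name no run.

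**Figure D5:**
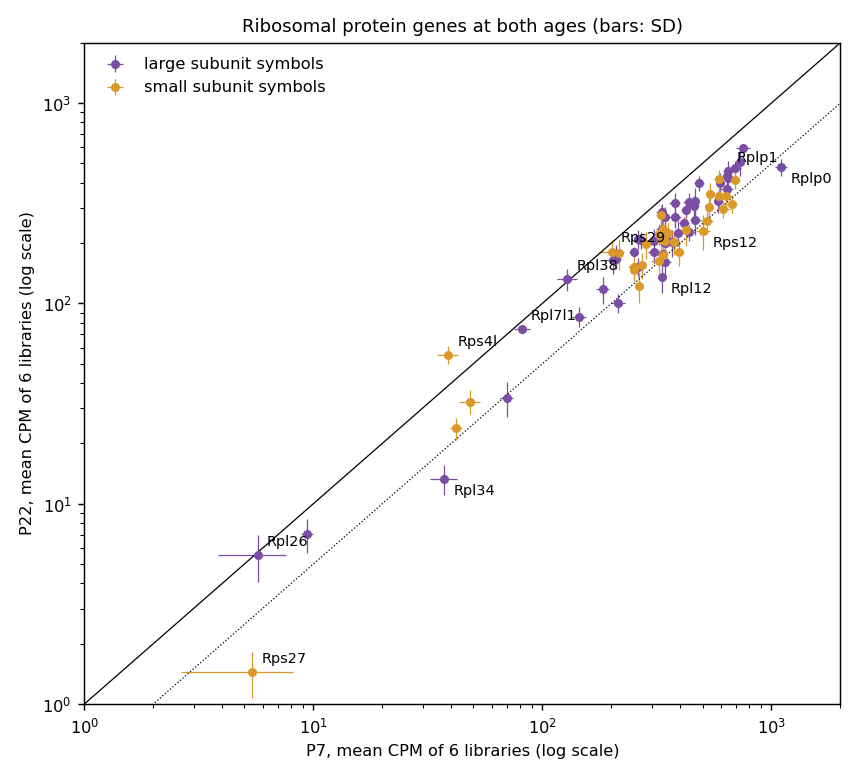
Mean level of each tested member at P7 (6 libraries, both genotypes) and P22 (6 libraries) in CPM on log axes, with the SD over libraries. The solid line marks equal levels and the dotted line a ratio of 0.5. Nearly all points lie under the solid line, and Rps4l, at 38.8 and 55.3 CPM, lies above it.

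Rplp0 fell from 1105 ± 64.1 to 479 ± 45.8 CPM (SD, n = 6 and 6, log2 fold change −1.21 ± 0.06, adjusted p = 1.70e-09), from a range of 980 to 1148 CPM at P7 to one of 408 to 519 CPM at P22. Rpl12, which sits at the base of the same stalk, fell from 331 ± 10.1 to 136 ± 23.6 CPM (−1.30 ± 0.06), while the stalk tips Rplp1 and Rplp2 stood at −0.50 ± 0.07 and −0.32 ± 0.06, both called lower. The difference among them was not tested. Rps12 (−1.15), Rps18 (−1.15), Rps19 (−1.14) and Rpl32 (−1.12) followed among the 8 largest decreases, with Rps27 (−1.92) and Rpl34 (−1.49), which stood at −0.61 and −0.98 when summed with their copies. Rpl5 (−0.86), Rpl11 (−0.49) and Rps27a (−0.66) fell too. The members that were not called were Rpl38 (0.03 ± 0.06, with 128 ± 13.1 against 132 ± 16.5 CPM), Rps29 (−0.15 ± 0.10, called lower at −0.22 without P7 Bai1tm2b/tm2b replicate 5) and Rpl26 alone (−0.05). Summed with its copy Rpl26 was called lower, at −0.43 (adjusted p = 2.37e-05).

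Paralogs within a pair had different values. Rps4l, annotated as a pseudogene, was the member called higher at P22 (0.51 ± 0.06, adjusted p = 9.13e-06), from 34.0 to 44.2 CPM at P7 to 45.7 to 62.7 CPM at P22. Rps4x, its X-linked relative, fell by 1.07 on the log2 scale (617 ± 40.5 to 294 ± 28.2 CPM). Rpl7l1 fell by 0.14 (adjusted p = 0.0347) and Rpl7 by 0.78, and the call for Rpl7l1 was lost with DESeq2 and without P7 replicate 6 or 7 of either genotype, P22 Bai1tm2b/+ replicate 1 or 3, or P22 Bai1tm2b/tm2b replicate 2 or 3 (−0.14 to −0.11), and with the trend on length taken out (−0.065, adjusted p = 0.280). Rpl22l1 fell by 1.07 and Rpl22 by 0.33, the opposite order of their values in the P22 genotype comparison (0.49 and 0.15). That comparison shares its 6 libraries with the one between the ages. Rps27l fell by 0.83. No difference between paralogs was tested.

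Other genes of ribosomes and translation were counted by list, beside 5.04% of all genes called higher and 7.28% lower at P22 and 38.2% and 42% between the ages. In P7 replicates 1 to 4 these shares were 4.76% and 3.26%. Shares near these are no result about a list. That holds for the biogenesis genes and the regulators between the ages, for the mitochondrial genes at P22 and for the translation factors in P7 replicates 1 to 4. Of 4 ribosomal protein genes outside the symbol rule, 1 was called higher at P22 in Bai1tm2b/tm2b, Fau, the gene of Rps30 fused to a ubiquitin-like domain (0.29, adjusted p = 0.0203), and between the ages 3 fell, the largest Rpsa, the 40S protein also known as a laminin receptor (−0.75), and 1, Rpl36al, was higher at P22 (0.15). Of 27 translation factors and other TOP mRNAs, 3 were higher in Bai1tm2b/tm2b at P22, the growth-related protein Tpt1 (0.30) and the elongation factors Eef1a1 (0.24) and Eef1b2 (0.21), and 1 was lower, the neuronal and muscle elongation factor Eef1a2 (−0.27). Between the ages 19 of the 27 fell, Eef1a1 the most (−1.11), and 4 were higher at P22, Eef1a2 the most (3.39). Of 77 mitochondrial ribosomal protein genes 0 were higher and 4 lower in Bai1tm2b/tm2b at P22 (median −0.01). In P7 replicates 1 to 4, without the trend on length taken out, 0 were higher and 18 lower (median −0.22). Other genes of 500 to 1000 nt also had a median of −0.22 in that set, and 13.4% of them were lower. Between the ages 68 mitochondrial genes were higher at P22 and 3 lower (median 0.44), Mrpl35 (1.22) being the highest. Of 30 ribosome biogenesis genes 0 were higher and 1, Rrp12, lower at P22 in Bai1tm2b/tm2b (−0.33), and between the ages 12 were higher and 10 lower, from the assembly factor Wdr12 (0.88) to Pes1 (−0.44). Of 14 regulators 3 were lower at P22 in Bai1tm2b/tm2b, the mTORC1 subunit Rptor (−0.27), Larp1 (−0.25) and Mtor (−0.24), and 0 were higher. Of other genes over 4000 nt, 11.9% were called lower and 3.00% higher in that comparison. The regulators were not set beside genes of like length. Between the ages 6 regulators were lower at P22, with the growth-driving transcription factor Mycn (−2.12) among them, and 6 were higher, with Larp1 (0.89) among them. In P7 replicates 5 to 7 none of these lists had a member called, where 0% of all genes were called higher and 0% lower. That is no result about the lists. In replicates 1 to 4 the translation factors had 1 higher and 1 lower, the biogenesis genes 1 and 4, and the regulators 2 and 0. Of other genes over 4000 nt, 15.1% were called higher and 0.378% lower in that set. Of the 4 ribosomal protein genes outside the symbol rule 1 was called lower in replicates 1 to 4 and 0 higher, with a median of −0.29.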

How the data were processed

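RNA-seq of pooled apical coils was processed by the authors with an nf-core RNA pipeline, mm10 and Salmon; the submitters' processing notes name STAR, Salmon and DESeq2, while versions, annotation release and strand setting are not given in the sources used here. The authors deposited estimated counts for P22 and P7 replicates 5 to 7. For P7 replicates 1 to 4 the deposited values are whole numbers that sum to nearly the same total in each library. They were treated as a score, namely TPM rounded by the authors, for which depth is unknown. The members and lists were chosen with earlier results of these data known.

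Groups and replicate numbers came from the sample titles. Counts were rounded, filtered (filterByExpr), scaled by TMM and tested with edgeR 4.0.16 (quasi-likelihood) in R 4.3.3. Rounded TPM with a mean of at least 5 were TMM-scaled and tested with limma 3.58.1 as log2(TPM + 1), and folds of low genes are understated on this scale. p-values were two-sided, adjusted over all genes tested, with adjusted p under 0.05 as the call. The age contrast and its interaction with genotype used one fit of 12 libraries, and the 2 P7 sets were joined only in a limma interaction fit. CPM given for genotype at 1 age and for both ages come from separate scalings. DESeq2 1.42.0, other scalings, filters, length and GC trends (splines with 5 degrees of freedom), left-out libraries and a replicate block were alternatives. Lengths are medians over basic GENCODE vM21 transcripts (GRCm38), and 96.1% of the genes tested at P22 had one. Of the members 26 overlap an exon of another gene on the same strand and 19 on the opposite strand. A copy is a gene with a member's symbol plus -ps or rt, or one sharing over 20% of its 100-nt stretches with a member. Scripts were tested on simulated counts. Genes named follow a rule: those called or with the largest and smallest changes or levels, the P-stalk, Rpl5, Rpl11, Rps27a, paralogs, and up to 4 genes of each other list. The 4 copies were added later. The libraries are pools of separate animals, and p-values measure the spread between pools.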

Additional observations from a re-analysis of the deposited data

Results flagged for a closer look

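In the groups of 4 libraries in rounded TPM, 24 values were tested for a sample far from the other 3 (Dixon's test), and 3 were past the critical value. Chance alone gives about 1 in 20 for independent values. These values share the same libraries, and some of the genes were named for their changes in them, so that rate is not a fair yardstick here. Rps21 was at 6321 TPM in Bai1tm2b/+ replicate 4 and between 3957 and 4351 TPM in the other 3 controls. Rps12 was at 4922 TPM in Bai1tm2b/tm2b replicate 1 and between 3587 and 3792 TPM in the other 3. Rps27 was at 205 TPM in Bai1tm2b/tm2b replicate 1 and between 8.59 and 14.0 TPM in the other 3, in which Rps27rt, with the same coding sequence, held 99.8% to 99.9% of the sum of the 2 genes. Replicate 1 of Bai1tm2b/tm2b is the library without which 37 members were called lower in that set.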

How the results depend on the processing

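For P22 genotype, 55 members were higher and 0 lower with a median of 0.29. With the trend on length taken out there were 22 higher and 1 lower (median 0.14), with length and GC 26 and 1 (median 0.14), and under the study's thresholds 1 higher. Scaled to neuron markers, an alternative chosen after seeing the data like the 2 that follow, the median was 0.69, and scaled to hair cell markers 0 were higher and 2 lower with a median of −0.12, Rps27a at −0.012, Rplp0 at −0.17, Rpl5 at −0.091 and Rpl11 at −0.11, while Rpl7l1 was at 0.41 scaled to neuron markers. With copies summed there were 58 higher. Leaving out 1 library gave 13 to 66 higher, 0 lower and medians of 0.22 to 0.35. In P7 replicates 5 to 7 the median of 0.03 was 0.45 scaled to neuron markers and −0.086 scaled to hair cell markers, and leaving out 1 library gave medians of 0.01 to 0.06 and 0 calls. In P7 replicates 1 to 4 the median of −0.26 was −0.070 without the length trend, −0.090 without length and GC and −0.57 scaled to neuron markers, with 1 member lower, and leaving out 1 library gave medians of −0.34 to −0.19, 0 higher and 0 to 37 lower.

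For P22 against P7, 2 members were higher with no filter, with DESeq2 and scaled to hair cell markers, where 37 were lower with a median of −0.23, Rplp2 at 0.11, Rpl7l1 at 0.29 and Rpl22 at 0.094. Scaled to neuron markers 0 were higher with a median of −4.03, Rps4l at −2.85 and Rpl38 at −3.33. Leaving out 1 library gave 75 to 77 lower, 1 higher and medians of −0.70 to −0.64. Under the study's thresholds 57 were lower. The genotype difference at P22 minus that at P7 had 3 members higher with DESeq2, and medians of 0.15 without the length trend, 0.15 without length and GC and −0.035 scaled to hair cell markers, and leaving out 1 library gave 0.21 to 0.33 and 0 calls. The difference between the P7 sets had a median of −0.10 without the length trend and −0.37 to −0.22 with 1 library left out, with 0 calls. The shares moved with division by length, to 4.29%, 5.27%, 9.34% and 9.76% (P22 and P7, controls first). Without 1 library they were 1.42% to 1.56% and 1.85% to 1.90% at P22, 3.13% to 3.26% and 3.31% to 3.39% at P7 in counts, and 16.7% to 17.7% and 15.1% to 16.2% in TPM. No mitochondrially encoded gene is in the tables, so that alternative changed nothing. For most of these alternatives the share of all genes called is not given, and the causes were not tested.

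With the replicate number as a block, 41 members were higher at P22 (median 0.29) and 0 were called at P7. Of the genes named, Rplp0 was then not called (adjusted p = 0.0503) and Rpl34 was (adjusted p = 0.0485). Libraries with the same number did not deviate together (correlations of −0.23 to 0.07), so the labels' numbers were not taken as pairs. In the rounded TPM, depth is unknown.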

Other observations

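Between the ages, where 38.2% of all genes were called higher at P22 and 42% lower, markers of dividing cells were lower at P22 for 10 of 10 genes (median log2 fold change −2.86), and their sum was 160 to 190 CPM in the P7 controls and 51.5 to 56.5 CPM in the P22 controls. The 10 neuron markers were all higher at P22 (median 3.47), 9 of the 10 Schwann cell and myelin markers were higher and 1 lower (median 1.02), and 7 of the 10 supporting cell markers were lower and 3 higher (median −1.65). Of the 10 hair cell markers 6 were lower and 2 higher (median −0.82), of the 10 macrophage markers 8 were lower and 0 higher (median −0.74), of the 10 markers of bone-forming cells 9 were lower and 1 higher (median −1.75), and of 6 red cell markers 4 were higher and 0 lower. These lists moved together with the fall of the ribosomal protein genes, and their part in it was not tested.

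In the P22 genotype comparison 5.04% of all genes were called higher and 7.28% lower. Of the 10 Schwann cell and myelin markers 2 were higher and 0 lower. Of 9 tested markers of dividing cells 1 was higher and 0 lower. Of the 10 macrophage markers 1 was higher and 0 lower, and so was 1 of 6 red cell markers. Of the 10 markers of bone-forming cells 0 were higher and 1 lower. Whether these counts differ from the shares over all genes was not tested.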
